A study of Rattus norvegicus with 8 samples.

Results

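Snap25, Syt1 and Vamp2 encode core proteins of the machinery that releases neurotransmitter from synaptic vesicles. They are 3 of the 32883 genes in a table of molecule counts from rat spinal cord. The 3 rows were chosen by function and by identifier (ENSRNOG00000006037 for Snap25, ENSRNOG00000006426 for Syt1 and ENSRNOG00000006989 for Vamp2). The rule for this choice did not use their measured values, but earlier results of these data were known when it was made. The pairing of name and identifier came with that choice, since the table gives identifiers alone. All 3 were among the 4159 genes with enough molecules to be tested.

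The study asked how an injury of the thoracic cord changes gene expression below it, in lower spinal cord that was itself not cut. Tissue from Sprague Dawley rats, an outbred strain, was sampled 4 days after a hemisection at thoracic level 9 (injured, 4 libraries) and from animals without an injury (uninjured, 4 libraries). A hemisection severs the cord on one side only. Age, a sham operation of the uninjured animals and the side sampled are not in the labels, nor is it said that the libraries are from separate animals. If they are not, the p-values measure only the spread between these libraries, which may be technical. The libraries were made with CEL-Seq2, which reads the 3′ end of polyadenylated RNA and tags each captured molecule, so that a value counts molecules and not reads.

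Vesicle release depends on a bundle of helices that pulls the vesicle onto the plasma membrane. Vamp2, also called synaptobrevin, is anchored in the vesicle and contributes a helix to that bundle. Snap25, which is attached to the plasma membrane by lipid chains, contributes further helices and joins with a syntaxin. Syt1, or synaptotagmin, sits in the vesicle membrane and binds calcium, which triggers fast fusion. In the spinal cord these transcripts are known mainly from neurons, where they serve motor, sensory and interneuron synapses. The identifiers of other vesicle and cell type genes were not paired with names here, so the tissue was not checked against further markers and the rest of the release machinery was not analysed here.

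Libraries held between 119808 and 405537 molecules. The libraries numbered 3 were the shallowest of both groups, and uninjured replicate 3 stood apart. Its 10 most abundant genes took 24.6% of its molecules, and its TMM factor, which scales a library by the bulk of its genes, was 0.764 against 0.893 to 1.12 in the other 7. Values in CPM, molecules per 1000000 of the TMM-scaled total of the tested genes, are therefore raised in this library compared with plain shares. Results that turn on it are given with and without it.

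None of the 3 genes passed the test for a difference after injury. The fitted levels in injured cord were 0.87 times (Snap25), 0.67 times (Syt1) and 0.94 times (Vamp2) those in uninjured cord. The test was edgeR's quasi-likelihood test with Benjamini-Hochberg adjustment over the 4159 genes, in which 41 genes (0.986%) were called, all of them higher after injury. That split depends on the fit: a blocked fit, described below for Syt1, called 16 genes lower. At an unadjusted p under 0.05, 1 of the 3 genes, Syt1, was lower, where 2.5% of all tested genes were lower at that level. DESeq2 (1.23% of genes called) and limma-voom (1.13%) also called 0 of the 3, and in both 0 of the 3 had an unadjusted p under 0.05. For 0 of the 3 did every injured library lie below every uninjured one in CPM, which was so for 1.78% of tested genes. The median fitted log2 fold change of the 3 genes was -0.20, beside -0.01 over all tested genes. All 3 values lay below 0, as did those of 52.1% of tested genes. In bulk tissue such as this, fewer neurons and fewer transcripts per neuron cannot be told apart.

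**Figure D1:**
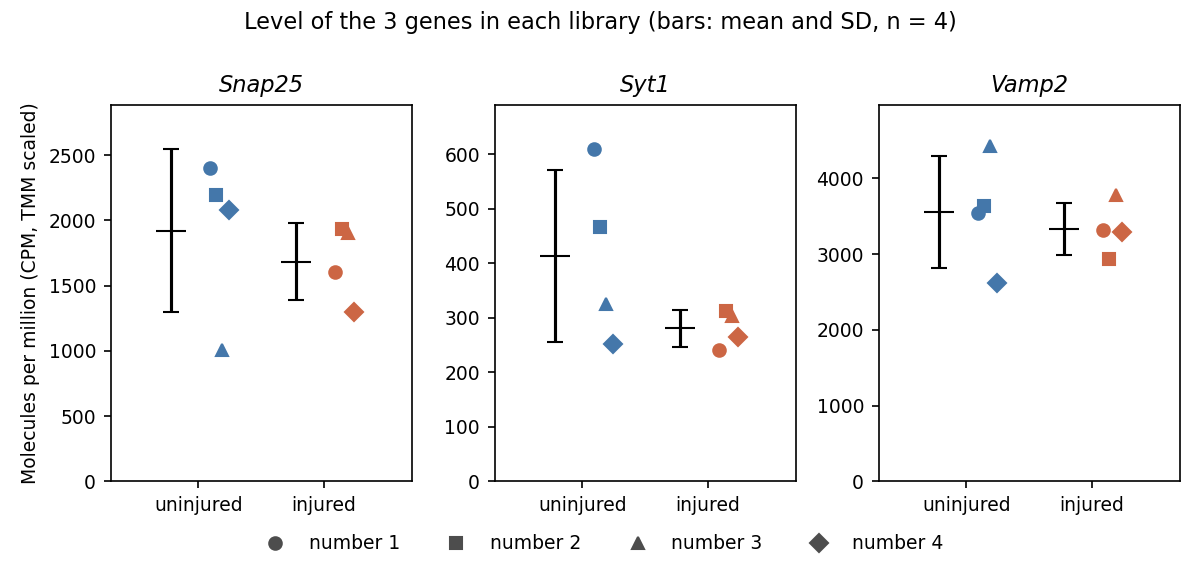
Level of Snap25, Syt1 and Vamp2 in each library, in TMM-scaled CPM, with the mean and SD of 4 libraries per group to the left of the points and the marker shape giving the replicate number. The groups overlap for each gene, and uninjured libraries spread more widely than injured ones, for Snap25 only through uninjured replicate 3.

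Syt1, the calcium sensor, had the largest fitted difference of the 3. Uninjured replicates 1 to 4 held 237, 106, 28 and 105 molecules, which is 609, 467, 324 and 252 CPM. Injured replicates 1 to 4 held 87, 117, 39 and 63 molecules, which is 240.4, 313, 304 and 266 CPM. In CPM, all 4 injured libraries lay below the uninjured mean, but only injured replicate 1 was below the lowest uninjured library. As a share of all molecules, uninjured replicate 3 held the least Syt1 of the 8 libraries (0.0234%), and 0 injured libraries lay below it. The groups thus overlapped on both scales. The high values were those of uninjured replicates 1 and 2.

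Syt1 averaged 413 ± 158 CPM without injury and 281 ± 33.7 CPM after it (SD, n = 4 per group). The fitted log2 fold change was -0.58 ± 0.27 (standard error, edgeR adjusted p = 0.615, unadjusted p = 0.0447). Its 95% interval ran from a 2.20-fold lower to a nearly equal level (fold 0.454 to 0.989). An exact two-sided permutation test on Syt1 CPM gave p = 0.171, where the smallest p that 4 against 4 allows is 0.0286. On the share of all molecules, the same permutation test gave p = 0.314. Of the 4159 fitted log2 fold changes, 201 were lower than that of Syt1.

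The Syt1 difference was largest within replicate numbers 1 and 2. Within a number, the injured to uninjured ratio of Syt1 CPM was 0.395 for number 1 (95% counting interval 0.305 to 0.507) and 0.669 for number 2 (0.510 to 0.879). It was 0.937 for number 3 (0.562 to 1.58) and 1.05 for number 4 (0.759 to 1.45). As a share of all molecules, Syt1 at number 3 went the other way, from 0.0234% without injury to 0.0255% after it. The counting intervals of numbers 1 and 2 excluded equality and those of numbers 3 and 4 included it. Within numbers 1 and 2 alone the Syt1 log2 fold change was -0.96 (edgeR adjusted p = 0.0527), and within numbers 3 and 4 alone it was -0.002 (edgeR adjusted p = 0.9995).

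An interaction term, added after seeing the data, asked whether the Syt1 difference itself differed between these sets of numbers. Its estimate was -0.98 ± 0.43 on the log2 scale (standard error, edgeR unadjusted p = 0.0297, adjusted p = 0.999). In that test 0 of 4159 genes (0%) passed the adjusted threshold and 74 had an unadjusted p under 0.05. Uninjured replicate 1, the library with the highest Syt1 level, weighed most: without it the Syt1 log2 fold change was -0.31 (edgeR unadjusted p = 0.257).

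Same-numbered libraries varied together over all genes for numbers 1, 2 and 4 (correlations of 0.39, 0.36 and 0.45). For number 3 the correlation was 0.17, below that of uninjured replicate 1 with injured replicate 2 (0.24). The fit was therefore repeated with the replicate number as a block, which called 110 genes (2.64%), 94 of them higher and 16 lower after injury. None of the 3 was among them. The Syt1 value on the log2 scale was then -0.56 ± 0.21 (standard error, edgeR adjusted p = 0.225).

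**Figure D2:**
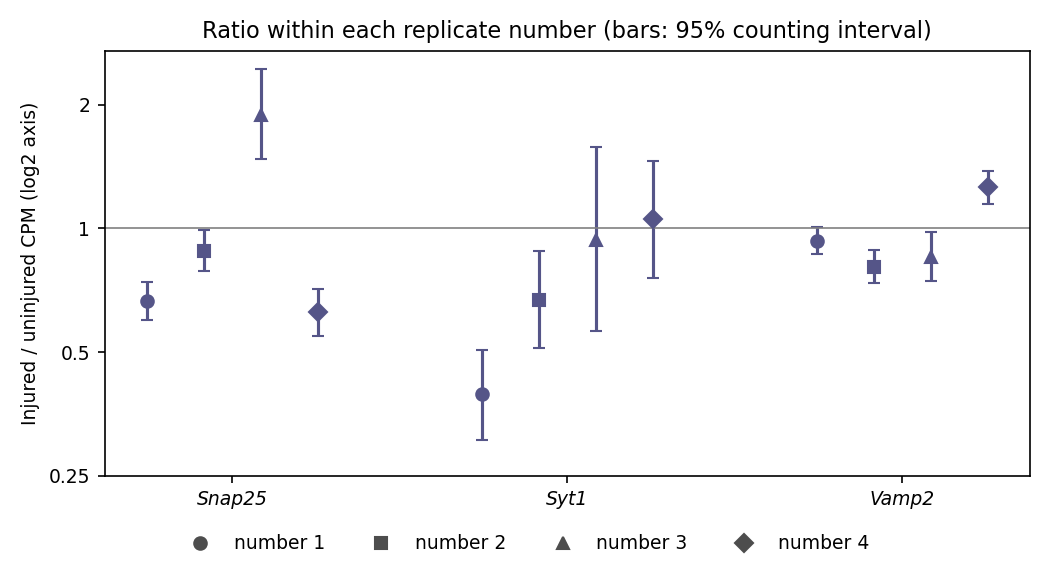
Injured to uninjured ratio of CPM within each replicate number for the 3 genes, on a log2 axis, with 95% intervals that cover counting error only. Snap25 at number 3 lies above 1 (1.89) while its other 3 ratios lie below 1, Syt1 runs from 0.395 to 1.05, and Vamp2 stays between 0.807 and 1.26.

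Snap25, the plasma membrane partner, had 1 library far from the rest. Uninjured replicates 1 to 4 held 936, 498, 87 and 867 molecules, which is 2406, 2194, 1008 and 2080.3 CPM. Injured replicates 1 to 4 held 580, 725, 244 and 308 molecules, which is 1602, 1937, 1901 and 1299 CPM. Uninjured replicate 3 was the lowest of all 8 libraries, and the other 3 uninjured libraries were the highest 3, above all 4 injured ones.

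Snap25 averaged 1922 ± 624 CPM without injury and 1685 ± 298 CPM after it (SD, n = 4 per group). The fitted value, on the log2 scale, was -0.20 ± 0.27 (standard error, edgeR adjusted p = 0.991), and the 95% interval of the fold ran from 0.584 to 1.30. The exact two-sided permutation test on Snap25 CPM gave p = 0.514. As a share of all molecules, uninjured replicate 3 held 0.0726% Snap25 (exact 95% binomial interval up to 0.0896%), against 0.120% to 0.250% in the other 7 libraries. Snap25 was thus lowest in this library on both scales.

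The Snap25 call changed on leaving out the libraries numbered 3 together with adding the replicate block, and not with either step alone. Without uninjured replicate 3, the Snap25 log2 fold change was -0.41 (edgeR adjusted p = 0.626), and without both libraries numbered 3 it was -0.46 (edgeR adjusted p = 0.587). With the block added to the latter fit, it was -0.48 ± 0.14 (standard error), and Snap25 passed the test (edgeR adjusted p = 0.0191). That fit called 111 of 4660 genes lower (2.38%) and 272 higher. With the pairs numbered 1, 2 or 4 left out instead, the Snap25 log2 fold change under the block was -0.03, -0.17 and 0.004, and none passed (edgeR adjusted p from 0.907 to 0.996). This alternative was chosen after earlier results of these data had shown that the libraries numbered 3 stand apart.

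By replicate number, the injured to uninjured ratio of Snap25 CPM was 0.666 (95% counting interval 0.5996 to 0.740), 0.883 (0.787 to 0.992), 1.89 (1.47 to 2.44) and 0.624 (0.546 to 0.712) for numbers 1 to 4. Number 3 thus went the opposite way from the other 3, beyond counting error. In the blocked fit of all 8 libraries the Snap25 log2 fold change was -0.18 ± 0.22 (standard error, edgeR adjusted p = 0.798).

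Vamp2, the vesicle membrane partner, had the smallest spread of the 3 over all 8 libraries. Uninjured replicates 1 to 4 held 1380, 825, 382 and 1089 molecules, which is 3547, 3635, 4426 and 2613 CPM. Injured replicates 1 to 4 held 1199, 1098, 485 and 780 molecules, which is 3313, 2934, 3779 and 3289.6 CPM. The highest and the lowest value both belonged to uninjured libraries, and the injured libraries lay between them. By share of all molecules uninjured replicate 3 was not the highest: it held 0.319% Vamp2, between 0.269% in uninjured replicate 4 and 0.368% in uninjured replicate 1.

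Vamp2 averaged 3555 ± 742 CPM without injury and 3329 ± 347 CPM after it (SD, n = 4 per group). Its fitted log2 fold change was -0.09 ± 0.27 (standard error, edgeR adjusted p = 0.991). The 95% interval of the fold, 0.636 to 1.38, excluded a fall of more than 1.57-fold and a rise of more than 1.38-fold. The exact two-sided permutation test on Vamp2 CPM gave p = 0.629. Without uninjured replicate 3 the sign of the Vamp2 log2 fold change turned (0.02, edgeR adjusted p = 0.987). Within a number, the ratio of Vamp2 CPM was 0.934 (95% counting interval 0.864 to 1.01), 0.807 (0.737 to 0.885), 0.854 (0.745 to 0.979) and 1.26 (1.15 to 1.38) for numbers 1 to 4. The intervals of numbers 2 and 3 lay below 1 and that of number 4 above it. As a share of all molecules, Vamp2 at number 3 was nearly equal, 0.319% without injury and 0.317% after it. That the CPM interval of number 3 lay below 1 thus turned on the TMM scaling, whose error the interval leaves out.

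**Figure D3:**
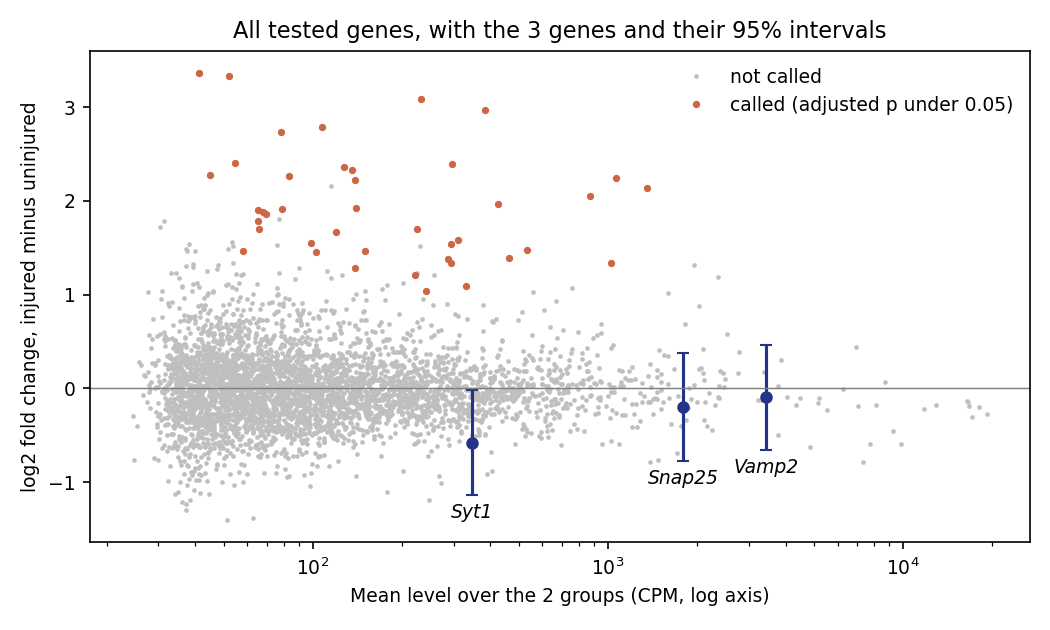
Fitted log2 fold change (injured minus uninjured) against mean level in CPM on a log axis for all 4159 tested genes, with called genes coloured and the 3 genes drawn with 95% intervals. Snap25 and Vamp2 are among the more abundant genes and lie close to 0, and Syt1 lies at -0.58.

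By mean CPM over the 8 libraries, Vamp2 ranked 28, Snap25 ranked 63 and Syt1 ranked 522 among the 4159 tested genes. CEL-Seq2 counts a transcript at its 3′ end whatever its length, but the capture of different 3′ ends may differ, so these ranks are not a comparison of transcript number per cell. The value of Syt1 in uninjured replicate 3 rested on 28 molecules, the fewest for any of the 3 genes in any library, and that of Vamp2 in uninjured replicate 1 on 1380, the most.

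For each of the 3 genes, over 4 libraries per group, the coefficient of variation of CPM was larger in uninjured than in injured libraries. It was 32.5% against 17.7% for Snap25, 38.3% against 12.01% for Syt1 and 20.9% against 10.4% for Vamp2. For Snap25 this turned on uninjured replicate 3, without which its uninjured value was 7.41%, below the injured one. No test of these spreads was made.

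Ratios between the 3 genes within a library do not depend on the scaling of that library. They can depend on depth, because a limit on molecular identifiers compresses abundant genes more in deep libraries. A correction for such a limit moved the ratio of Syt1 to Vamp2 from 0.172 to 0.145 in uninjured replicate 1 and from 0.0733 to 0.0701 in uninjured replicate 3. Vamp2 molecules outnumbered Snap25 molecules in all 8 libraries. The ratio of Vamp2 to Snap25 molecules was 1.47, 1.66, 4.39 and 1.26 in uninjured replicates 1 to 4 and 2.07, 1.51, 1.99 and 2.53 in injured replicates 1 to 4. Uninjured replicate 3 stood far above the others, with a 95% counting interval of 3.47 to 5.61.

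Without the libraries numbered 3, the median ratio of Vamp2 to Snap25 was 1.47 (range 1.26 to 1.66) in uninjured and 2.07 (range 1.51 to 2.53) in injured libraries. The ranges overlapped. For number 4 the ratio had a 95% counting interval of 1.15 to 1.37 without injury and 2.22 to 2.90 after it. For number 1 the interval was 1.36 to 1.60 without injury and 1.87 to 2.29 after it. Number 2 went the other way, with overlapping intervals of 1.48 to 1.86 without injury and 1.38 to 1.67 after it. These intervals leave out the technical spread between libraries, which was not measured here.

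The ratio of Syt1 to Vamp2 molecules was 0.172, 0.128, 0.0733 and 0.0964 in uninjured replicates 1 to 4. In injured replicates 1 to 4 it was 0.0726, 0.107, 0.0804 and 0.0808. The injured values were close together, and uninjured replicates 1 and 2 stood above all of them. The ratio of Syt1 to Snap25 ran from 0.121 to 0.322 in uninjured and from 0.150 to 0.205 in injured libraries, with the whole injured range inside the uninjured one.

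**Figure D4:**
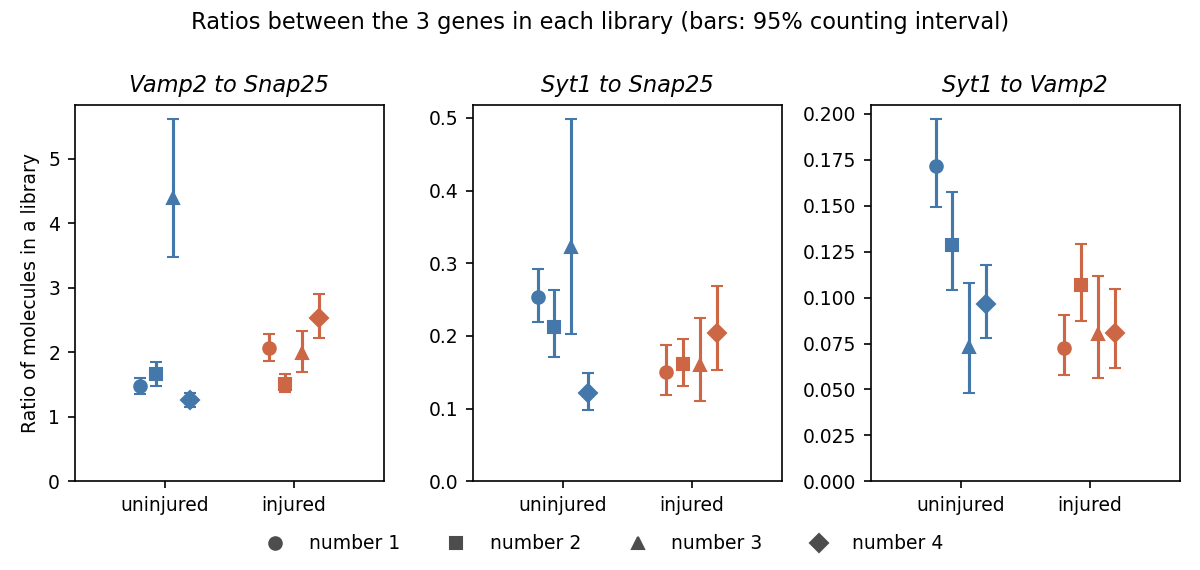
Ratios of molecule counts between the 3 genes within each library, with 95% intervals that cover counting error only, by group and replicate number. The ratio of Vamp2 to Snap25 is highest in uninjured replicate 3 (4.39), and the ratios of Syt1 to either gene span a narrower range in injured than in uninjured libraries.

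The genes whose pattern over the 8 libraries was most like that of the 3 were sought among 2447 tested genes with a mean of at least 20 molecules, by Pearson correlation of log2 CPM with the centred mean of Snap25, Syt1 and Vamp2. ENSRNOG00000001992 came first (r = 0.92), with 221, 100, 16 and 108 molecules in uninjured and 106, 112, 41 and 44 in injured replicates 1 to 4. ENSRNOG00000032729 came next (r = 0.87), with 101, 45, 8 and 64 molecules in uninjured and 49, 55, 24 and 24 in injured replicates. The median r of the ranked genes was 0.03. The CPM of both was lowest in uninjured replicate 3 (185 and 92.7), as for Snap25, with injured replicate 4 next (186 and 101). Vamp2 went the other way in CPM, which was highest in uninjured replicate 3 (4426). By share of all molecules Vamp2 was not highest there (0.319%, against 0.368% in uninjured replicate 1). The values of the 2 genes there rested on only 16 and 8 molecules. Neither passed the test after injury (edgeR adjusted p = 0.890 and 0.918). These correlations describe 8 libraries that share replicate numbers in pairs, and they were selected as the highest.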

How the data were processed

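The deposited table holds counts, whole numbers of molecules per Ensembl gene without normalization, 1 column per library. Per the submitters' processing notes, the authors used HISAT2 2.0.4, HTSeq 0.6.0 and the build Rnor_6.0. How molecular identifiers were collapsed is not given there. The largest counts per library, 3989 to 4080, were close to the 4096 identifiers that 6 bases allow. Counts of abundant genes may therefore be compressed. A correction for repeated identifiers, which adds at most 21.9% for Vamp2, 13.5% for Snap25 and 3.01% for Syt1, was run as an alternative.

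Genes were kept with filterByExpr (minimum count 10, minimum total 15) and tested with edgeR 4.0.16 in R 4.3.3 (quasi-likelihood, TMM, robust), two-sided, threshold 0.05. Standard errors were derived from the F statistic. Alternatives used DESeq2 1.42.0, limma 3.58.1, other scalings and filters, thinning and libraries left out. The scripts were tested on simulated data with 4 libraries per group, in genes with a mean of at least 100 molecules. There 0.194% of 1.5-fold falls and 55.6% of 2-fold falls were recovered. Syt1, with a mean of 97.75 molecules, lay just below that abundance limit. Exact tests and intervals used scipy 1.17.1 and figures matplotlib 3.10.9. Intervals on shares and ratios cover counting error only.

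Sample titles carry numbers 1 to 4 in either group, with no stated meaning. Deviations from the group means over tested genes correlated at 0.39, 0.36, 0.17 and 0.45 between libraries of the same number. The blocked fits and the ratios within a number therefore treated the numbers as pairs, from the data and not from a stated design. The main fit and the permutation tests treated the libraries as unpaired. Some different numbers also correlated: 0.24 (uninjured 1, injured 2), 0.17 (uninjured 2, injured 1) and 0.16 (uninjured 3, injured 4). Numbers 1 and 2, and in part 3 and 4, thus also varied together. The genes, lists and tests were chosen with earlier results of these data known. The named genes are the 3 chosen ones and the 2 whose pattern was most like theirs. Of 47357 genes in the RefSeq table used, 0 carry an Ensembl identifier, so the planned lists of other vesicle, neuronal and cell type genes were not used.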

Additional observations from a re-analysis of the deposited data

Results flagged for a closer look

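The ratio of Vamp2 to Snap25 molecules in uninjured replicate 3 (4.39) lay far from those of the other 3 uninjured libraries (1.26 to 1.66). Its gap to the nearest was 0.872 of the whole range, above the limit of 0.829 for 4 samples (Dixon's rule at 95%). Of 12 groups of 4 values examined, this was the only one past the limit, and chance alone passes about 1 in 20. The library had 382 Vamp2 and 87 Snap25 molecules and the lowest total of the 8, 119808 molecules. The part of its depth in this ratio was not tested. With the correction for repeated identifiers, which lifts abundant genes more, the ratio was 4.56.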

How the results depend on the processing

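Each of Snap25, Syt1 and Vamp2 was refitted under 23 other settings (other tests, scalings, filters, thinning, the replicate block and libraries left out), and none passed the adjusted threshold in any of them. The lowest adjusted p was 0.587 for Snap25, 0.0527 for Syt1 (numbers 1 and 2 alone) and 0.862 for Vamp2. Syt1 was lower in all 23, with log2 fold changes from -0.96 to -0.002, and had an unadjusted p under 0.05 in 12. Leaving out 1 library gave -0.41 to -0.08 for Snap25, -0.78 to -0.31 for Syt1 and -0.22 to 0.0235 for Vamp2, where 0.0235 was without uninjured replicate 3. In numbers 3 and 4 alone, where 2 libraries faced 2, the log2 fold change was 0.0188 for Snap25 and 0.00016 for Vamp2. Under the replicate block with 1 pair left out, chosen after seeing the data, Snap25 was at -0.48 without number 3, where it passed, and at 0.00397 without number 4, and Vamp2 was at 0.0029 without number 2. The replicate block on all 8 libraries changed no call of the 3 genes. The cause of these moves was not tested.

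The count of 41 called genes of 4159 tested, the background of these results, moved with the setting, as did the number tested. It became 98 of 12968 with no filter on low counts, which is a smaller share. The count was 110 of 4159 with the replicate block and 72 of 4159 with number group as a term. Without both libraries numbered 3 it was 62 of 4660, and 383 of 4660 when the block was added to that. It was 86 of 4768 in numbers 1 and 2 alone and 3 of 3226 in numbers 3 and 4 alone. The median of 10 draws thinned to 119808 molecules was 19.5. Leaving out 1 library gave 23 to 77. It was 23 of 3935 without uninjured replicate 1, 23 of 3932 without uninjured replicate 4 and 77 of 4705 without uninjured replicate 3. Spread between 4 libraries per group limits these results: the 95% intervals of the 3 genes leave room for falls of up to 1.71-fold (Snap25), 2.20-fold (Syt1) and 1.57-fold (Vamp2).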

Other observations

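Added together, Snap25, Syt1 and Vamp2 took 0.681%, 0.5998%, 0.415% and 0.508% of all molecules in uninjured replicates 1 to 4 and 0.520%, 0.512%, 0.502% and 0.447% in injured replicates 1 to 4. The injured libraries lay inside the range of the uninjured ones only through uninjured replicate 3. Without it, injured replicates 3 and 4 lay below the lowest uninjured share. In summed CPM, injured replicate 4 (4854) was below all 4 uninjured libraries, the lowest of which was uninjured replicate 4 (4945).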
